A study of Mus musculus with 43 samples.

Results

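Mouse brown adipocytes carrying a shortened RUNX2 were set against mouse brown adipocytes carrying the whole protein, with 4 libraries of the 43 in the series. IDR-deleted Runx2 cultures (genotype label "delete Runx2 IDR") gave 2 libraries, and full-length Runx2 cultures (genotype label "Full length Runx2"), which serve as the control, gave 2. Both groups came from a cell line labelled BAT, had gone through brown adipocyte differentiation, and were labelled as mature brown adipocytes. The members were all libraries of the count table that holds this comparison, and no measured value was used to choose them. The labels do not spell out the abbreviation IDR, the residues removed, the construct that carried either form, or whether the replicates were separate cultures, so the p-values measure the spread between these libraries only. The series as a whole asked what RUNX1 and RUNX2 do in fat, by overexpressing or removing them in brown preadipocytes before differentiation and by knockout in mice. From it, 3 libraries of Runx2 overexpression and 3 of empty vector, differentiated from brown preadipocytes, are used below as an outside reading of cultures with added Runx2.

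RUNX2 is a transcription factor that binds DNA through its Runt domain, with CBFB as a partner that steadies the contact. It is best known from bone, where it is required for osteoblasts to form and where matrix and protease genes such as Spp1 and Mmp13 are among its targets. Brown adipocytes burn fuel for heat through the uncoupling protein UCP1, and their maturation brings lipid-handling and mitochondrial genes up while fibroblast-like matrix genes recede.

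The libraries held 32852772 and 33244419 counts in IDR-deleted cultures, against 33837558 and 33787397 counts in full-length cultures. Levels are given as CPM, the counts of a gene per 1000000 counts of its library. Differences are log2 fold changes of IDR-deleted over full-length Runx2 with a standard error (SE). The SE was worked back from edgeR's test, as the absolute log2 fold change over the square root of the F statistic. Genes with a like ratio of change to SE can still differ in adjusted p. A gene is said to have been called, or to have risen or fallen, where edgeR's quasi-likelihood test gave an adjusted p under 0.05. Adipocyte markers were abundant in both groups. The 6 (Adipoq, Fabp4, Plin1, Pparg, Cidec and Lpl) summed to 18577 and 16981 CPM in IDR-deleted libraries, against 18158 and 17222 CPM in full-length libraries. Fabp4 and Lpl made up most of each sum. Of the 6, Plin1 was called higher and Adipoq lower in IDR-deleted cultures. The 8 brown adipocyte markers summed to 501 and 520 CPM in IDR-deleted libraries, against 462 and 437 CPM in full-length libraries. Markers of other cells were scarce in all 4 libraries. The 9 macrophage markers summed to 2.45 to 2.95 CPM, nearly all of it Cd68, with 6 of the 9 at 0, among them Adgre1, Ptprc and C1qa. The 5 endothelial markers reached at most 0.812 CPM, with Cdh5 and Kdr at 0, and the 6 cardiac muscle markers at most 0.365 CPM. The 8 markers of preadipocytes and stroma summed to 36.0 and 36.8 CPM in IDR-deleted libraries, against 42.0 and 43.3 CPM in full-length libraries, and Dpp4 and Thy1 were at 0. In bulk RNA, fewer cells of a type and less RNA per cell cannot be told apart.

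Runx2 itself differed between the groups. Its level was 114 and 143 CPM in IDR-deleted libraries, against 294 and 297 CPM in full-length libraries. Both IDR-deleted libraries lay below both full-length libraries, and Runx2 fell by 1.19 on the log2 scale (SE 0.085, adjusted p = 7.3e-12), which is 2.27-fold. A count summed over a gene cannot tell a transcript that lacks a stretch from a smaller number of transcripts, so loss of the IDR and a lower amount of Runx2 mRNA cannot be told apart in any result that follows. For scale, Runx2 averaged 330 ± 32.7 CPM with Runx2 overexpression and 8.14 ± 0.82 CPM with empty vector (SD, n = 3 each), so all 4 libraries held far more Runx2 mRNA than vector cells. Those 6 libraries are in another count table, and levels across tables are set side by side without a test.

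The related factor Runx1, a regulator of blood formation, fell with Runx2. It had 3.35 and 4.30 CPM in IDR-deleted libraries, against 8.39 and 8.11 CPM in full-length libraries, a log2 difference of -1.09 (SE 0.20, adjusted p = 3.3e-04). Runx3, the third member, had a log2 difference of -0.76 (SE 0.32, adjusted p = 0.22), and the partner Cbfb had 105 and 112 CPM in IDR-deleted libraries, against 126 and 114 CPM in full-length libraries (log2 difference -0.13, adjusted p = 0.52). Neither was called. Of the 12 corepressors and coregulators of RUNX proteins measured, including the TLE family, 1 was called, the histone deacetylase Hdac4, which fell by 0.42 (adjusted p = 0.028) and was not called without full-length library 2 (adjusted p = 0.21) or IDR-deleted library 1 (adjusted p = 0.59), or by DESeq2 (adjusted p = 0.078).

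Across all 13110 genes tested, 512 were called, 3.91% of them. In IDR-deleted cultures 198 genes were higher (1.51%) and 314 were lower (2.40%). The differences were mostly small: 90.8% of tested genes lay within 0.5 of 0 on the log2 scale, the median called gene differed by 0.48 in either direction, and a change of 2-fold or more was called for 21 higher (0.160%) and 47 lower (0.359%) genes. The libraries of the 2 groups did not overlap for 5818 genes, which was 44.4% of all tested, so a lack of overlap alone marks little here. The count of calls moved with single libraries: it was 242 without full-length library 2, 269 without IDR-deleted library 1 and 1214 without IDR-deleted library 2, and no gene called both with and without a library changed sign. The authors' deposited table lists 341 genes for this comparison, 124 higher and 217 lower. Of these, 339 were also called here in the same direction and 0 in the other. Of the 512 genes called here, 173 were not listed. The lowest absolute log2 fold change listed was 0.267, whereas the calls here had no fold limit.

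**Figure D1:**
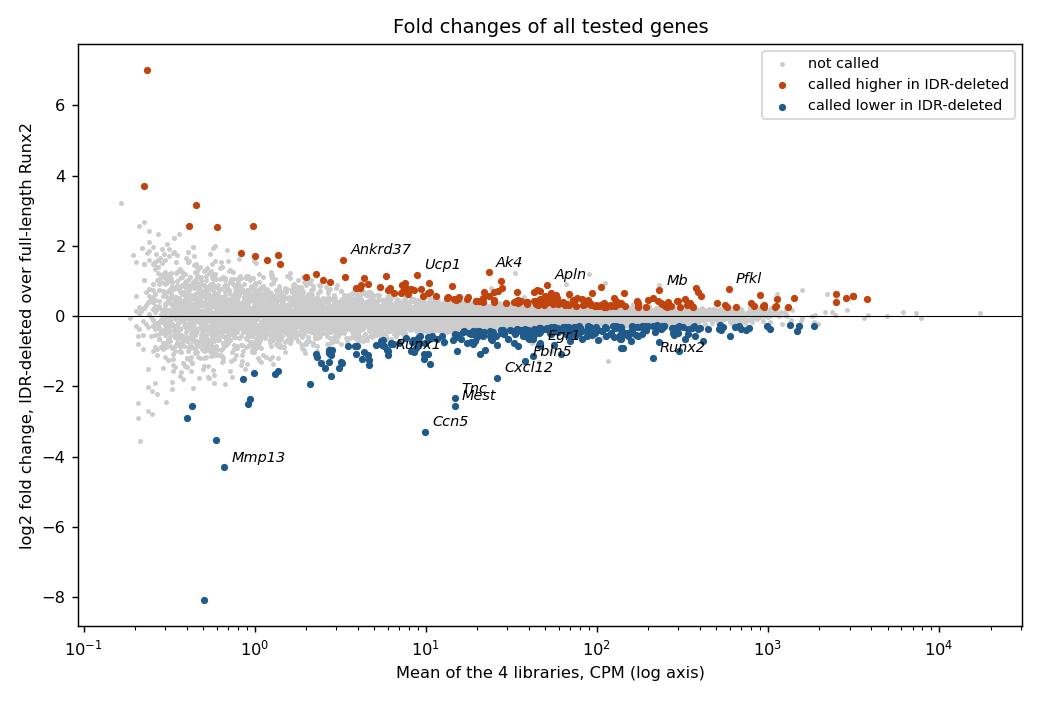
Each point is 1 of 13110 tested genes, with its mean CPM over the 4 libraries on a log axis and its log2 fold change of IDR-deleted over full-length Runx2 on the vertical axis; red genes were called higher and blue genes lower. The called genes that fell reach further from 0 than those that rose among genes above 5 CPM, with Ccn5 at -3.28 and Ak4 at 1.26 as the extremes.

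Ccn5, Mest and Tnc were among the genes that fell by 2-fold or more. Ccn5, a matricellular protein of the CCN family, had 1.89 and 1.74 CPM in IDR-deleted libraries, against 14.9 and 21.0 CPM in full-length libraries (log2 -3.28, SE 0.20, adjusted p = 1.3e-15). Mest, an imprinted gene tied to fat cell enlargement in mice, had 4.66 and 3.88 CPM in IDR-deleted libraries, against 23.8 and 26.9 CPM in full-length libraries (log2 -2.55, SE 0.15). Tnc encodes tenascin C, a glycoprotein of growing and healing tissue, and had 4.26 and 5.41 CPM in IDR-deleted libraries, against 21.4 and 27.9 CPM in full-length libraries (log2 -2.33, SE 0.16). In each of these genes the full-length libraries stood at more than 3 times the highest IDR-deleted library. Cxcl12, a chemokine that holds blood progenitors in their niche, had 12.8 and 10.9 CPM in IDR-deleted libraries, against 34.7 and 46.1 CPM in full-length libraries (log2 -1.75, SE 0.13). Fbln5, an elastic-fibre protein, had 18.1 and 26.1 CPM in IDR-deleted libraries, against 49.9 and 59.1 CPM in full-length libraries (log2 -1.29, SE 0.13). Angpt1, the ligand of the endothelial receptor TIE2, had 24.9 and 27.1 CPM in IDR-deleted libraries, against 57.2 and 59.3 CPM in full-length libraries (log2 -1.14, SE 0.10). The secreted protein gene Olfml3 and the RAS-associated gene Rassf4 each fell by 1.09, and the interferon-inducible DNA-sensor genes Ifi207 and Ifi204 fell by 1.37 and 1.22. All of these genes were called in each of the other settings tried, those that leave out a library included.

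**Figure D2:**
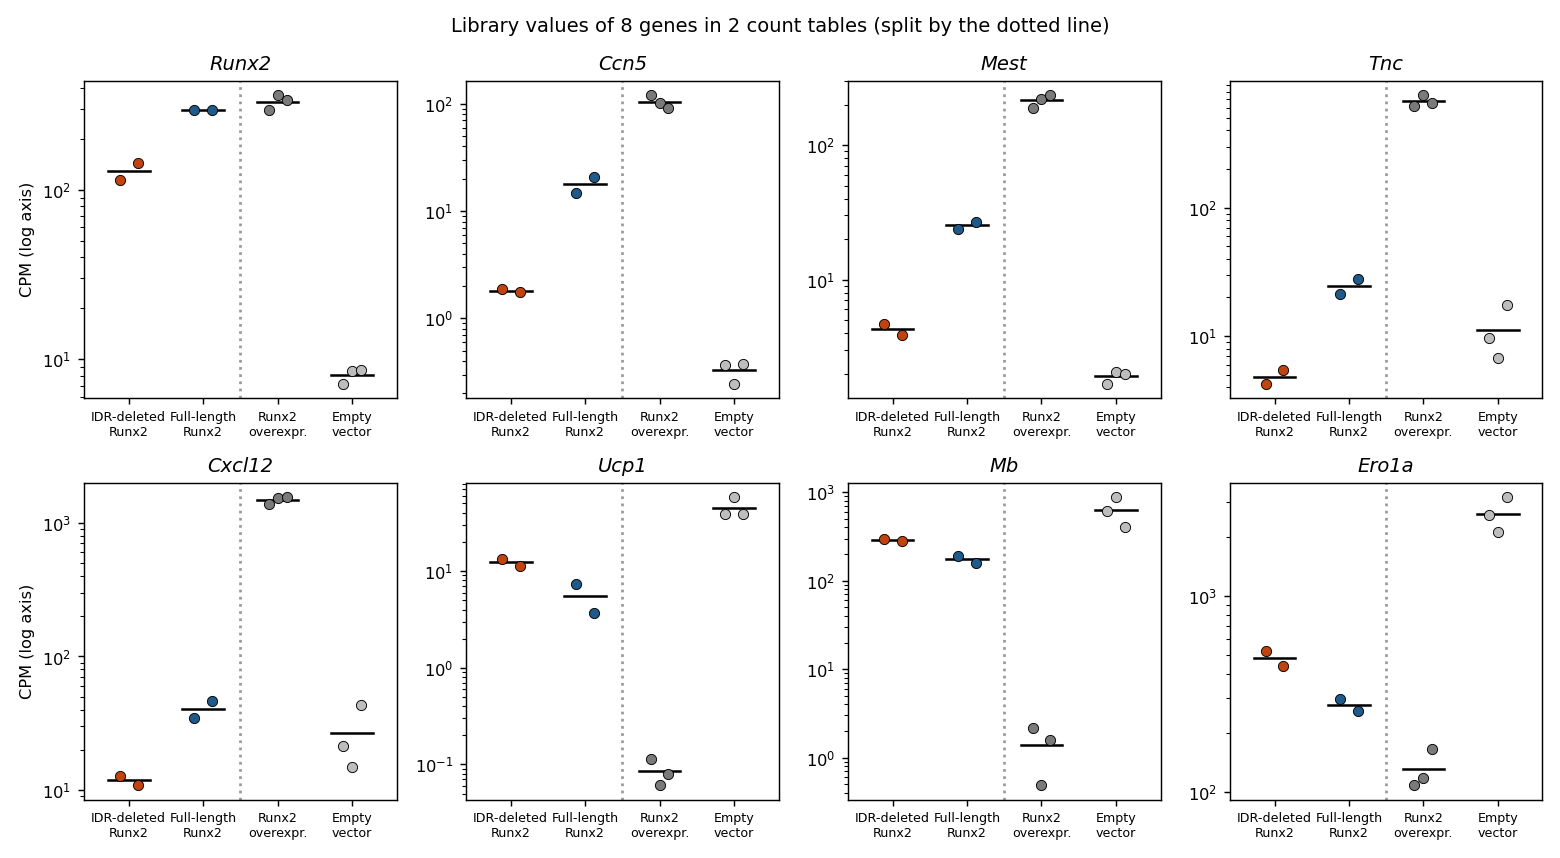
Each point is the CPM of 1 library on a log axis and each line a group mean, for IDR-deleted and full-length Runx2 (2 libraries each, left of the dotted line) and for Runx2 overexpression and empty vector (3 libraries each, from another count table, right of it). The IDR-deleted libraries lie below the full-length ones for Runx2, Ccn5, Mest, Tnc and Cxcl12 and above them for Ucp1, Mb and Ero1a, and for each of these genes the step has the direction of empty vector relative to Runx2 overexpression.

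Among bone-related genes the data were mixed. Mmp13, the collagenase of cartilage and bone, had 0 and 0.120 CPM in IDR-deleted libraries, against 1.24 and 1.30 CPM in full-length libraries (log2 -4.30, SE 0.76, adjusted p = 2.4e-04). It was close to absent from IDR-deleted cells and low in the others, DESeq2 gave it no adjusted p, and it was not tested where a mean of at least 1 CPM was required. Spp1, which encodes osteopontin, had 24.5 and 23.5 CPM in IDR-deleted libraries, against 35.9 and 46.6 CPM in full-length libraries (log2 -0.76, SE 0.11, adjusted p = 1.9e-05). These were the 2 called members of the 18 osteoblast and cartilage genes tested, 11.1% lower beside 2.40% of all genes. The median log2 fold change of the 18 was -0.24, and DESeq2 called 1 of the 18, lower. Alpl, the alkaline phosphatase of mineralising cells, had 24.0 and 20.1 CPM in IDR-deleted libraries, against 18.9 and 20.3 CPM in full-length libraries, and was not called (adjusted p = 0.53). The defining osteoblast markers Sp7, Bglap, Ibsp and Dmp1 together gave 0.548 and 0.752 CPM in IDR-deleted libraries, against 0.650 and 1.07 CPM in full-length libraries.

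Because Mmp13 and Spp1 are known RUNX2 targets in bone, the 250 bases before their starts were read from RefSeq (build GRCm38.p6). The heptamer looked for was TGTGGTT, the longer form of the motif that RUNX proteins bind, and both stretches hold it. They are set next to those of Apln and Rbp4, the genes that rose and hold it among the named called genes read. Not every named called gene was read in this way. Of those read, Runx2 and Pck1, which fell, also hold the heptamer there and are not shown. Mmp13 lies at chr9:7272264-7272513 (plus strand), Spp1 at chr5:104434861-104435110 (plus strand), Apln at chrX:48034854-48035103 (minus strand) and Rbp4 at chr19:38125322-38125571 (minus strand). Capitals mark TGTGGT or its complement ACCACA, and each sequence runs 5′ to 3′ on the strand of its gene up to the base before the start.
Mmp13: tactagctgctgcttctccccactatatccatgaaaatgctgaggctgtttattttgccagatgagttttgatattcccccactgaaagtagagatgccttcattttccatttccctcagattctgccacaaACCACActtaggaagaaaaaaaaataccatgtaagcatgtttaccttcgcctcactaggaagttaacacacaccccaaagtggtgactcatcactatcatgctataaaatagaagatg
Spp1: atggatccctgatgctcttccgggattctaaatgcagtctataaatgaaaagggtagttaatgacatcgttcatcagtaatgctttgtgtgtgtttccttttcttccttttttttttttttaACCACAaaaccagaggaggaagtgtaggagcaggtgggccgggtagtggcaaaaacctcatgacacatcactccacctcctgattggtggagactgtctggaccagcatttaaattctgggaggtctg
Apln: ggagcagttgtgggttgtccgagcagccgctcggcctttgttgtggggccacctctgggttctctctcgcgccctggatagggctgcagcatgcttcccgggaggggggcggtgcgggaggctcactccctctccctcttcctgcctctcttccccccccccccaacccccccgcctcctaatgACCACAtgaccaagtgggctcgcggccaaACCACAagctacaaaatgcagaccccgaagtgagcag
Rbp4: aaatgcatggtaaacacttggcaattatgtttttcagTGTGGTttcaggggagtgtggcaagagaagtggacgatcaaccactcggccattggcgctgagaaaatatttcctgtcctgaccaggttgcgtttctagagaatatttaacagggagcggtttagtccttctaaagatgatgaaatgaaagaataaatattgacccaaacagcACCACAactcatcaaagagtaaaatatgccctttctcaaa
The capitals begin 118 bases before the start of Mmp13, 128 before that of Spp1, 66 and 37 before that of Apln, and 213 and 40 before that of Rbp4. Over windows of 300 bases, 250 before and 50 after the start, TGTGGTT on either strand was found in 3.58% of all windows of tested genes. Counted per gene, it was found for 10 of 238 genes that fell (4.20%, exact 95% interval 2.03 to 7.59%), 5 of 153 that rose (3.27%, 1.07 to 7.46%) and 453 of all 10438 tested genes with a window (4.34%). The shorter TGTGGT, which every TGTGGTT contains, was found in 12.3% of all windows, and for 12.6% of genes that fell, 15.7% of genes that rose and 14.5% of all. For the heptamer, the share over all tested genes thus lay within the interval around each called group. Mest, Tnc and Cxcl12 have windows without TGTGGT in the bases before the start, which says only that these letters are not there. Spp1 has 2 listed starts, and the window of the other holds neither motif.

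Matrix genes on the lists below moved down where they were called. Of 30 matrix glycoprotein and proteoglycan genes, 8 fell and 0 rose, 26.7% lower beside 2.40% of all genes. The median log2 fold change of the list was -0.23 beside 0.0016 over all genes. Besides Tnc, Fbln5 and Spp1 the genes that fell included the thrombospondins, adhesive proteins that also check blood vessel growth. Thbs1 had 57.8 and 69.1 CPM in IDR-deleted libraries, against 93.5 and 109 CPM in full-length libraries (log2 -0.66, SE 0.091, adjusted p = 7.3e-06), and Thbs2 had 48.7 and 55.6 CPM in IDR-deleted libraries, against 76.7 and 96.6 CPM in full-length libraries (log2 -0.72, SE 0.098). The widespread matrix genes Fn1 (log2 -0.13, adjusted p = 0.48) and Postn (log2 -0.22, adjusted p = 0.53) were not called. At an unadjusted p under 0.05, edgeR had 1 gene of the list higher and 10 lower, and DESeq2 called 7 lower and 0 higher. Without full-length library 2, 5 of the list were called lower.

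Collagens and proteases shared the direction among the genes called. Of 20 collagen genes 5 fell and 0 rose, 25% lower beside 2.40% of all genes, with a median of -0.20. Unadjusted, 11 were lower and 1 higher, and DESeq2 called 3 lower and 0 higher. Col5a3, a chain of the fibre-regulating type V collagen, had 99.9 and 100.3 CPM in IDR-deleted libraries, against 131 and 174 CPM in full-length libraries (log2 -0.59, SE 0.097, adjusted p = 4.6e-04). Without full-length library 2, Col6a1, Col6a2, Col4a1 and Col8a1, the other 4 that fell, were not called (adjusted p between 0.22 and 0.61). The major fibrillar gene Col1a1 had 57.9 and 50.4 CPM in IDR-deleted libraries, against 57.9 and 71.9 CPM in full-length libraries, and was not called (log2 -0.24, adjusted p = 0.21). Of 20 matrix proteases and inhibitors 6 fell and 0 rose; unadjusted, 6 were lower and 1 higher, DESeq2 called 3 lower and 0 higher, and without full-length library 2 the count was 3. The calls made up 30% of the protease list, beside 2.40% of all genes lower. Its median was only -0.085, with 11 genes below 0 and 9 above it. Mmp11, stromelysin 3, had 34.9 and 44.0 CPM in IDR-deleted libraries, against 71.5 and 97.6 CPM in full-length libraries (log2 -1.08, SE 0.14, adjusted p = 1.0e-03). Timp3, an inhibitor of matrix proteases, fell as well (log2 -0.50, SE 0.096, adjusted p = 7.7e-04). Mmp14, a protease on the cell surface, fell by 0.35 (adjusted p = 5.0e-03) and was not called without full-length library 2 (adjusted p = 0.24).

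Of the immediate early genes, which answer growth signals within minutes, a minority fell. Egr1, the zinc finger factor, had 29.9 and 36.3 CPM in IDR-deleted libraries, against 55.1 and 64.7 CPM in full-length libraries (log2 -0.84, SE 0.10, adjusted p = 5.7e-07). Of 23 such genes 5 fell (Egr1, Egr2, Klf6, Fosl2 and Zfp36) and 0 rose, 21.7% lower beside 2.40% of all genes, with a median of -0.15, while unadjusted 7 were lower and 1 higher, and DESeq2 called 4 lower and 0 higher. The count was 2 without full-length library 1, without full-length library 2 or without IDR-deleted library 1. Tgfbr2, a receptor for TGF-beta, had 65.7 and 87.9 CPM in IDR-deleted libraries, against 127 and 124 CPM in full-length libraries (log2 -0.69, SE 0.099), and Igf1r, the IGF receptor, had 22.5 and 24.2 CPM in IDR-deleted libraries, against 39.4 and 34.5 CPM in full-length libraries (log2 -0.64, SE 0.11). Vcam1, an adhesion molecule for leukocytes, had 1.86 and 3.64 CPM in IDR-deleted libraries, against 5.64 and 7.58 CPM in full-length libraries (log2 -1.25, SE 0.25). Among 24 TGF-beta, activin and BMP genes, Tgfbr2 was the 1 that fell (4.17%, beside 2.40% of all genes). In the same list 3 rose (12.5%, beside 1.51%), among them the HLH inhibitor Id3 (log2 0.66, SE 0.11, adjusted p = 1.6e-04). The other genes that rose were Id2 (log2 0.40) and Ltbp2 (log2 0.35), and neither kept its call whichever library was left out. Id2 was at 0.25 without IDR-deleted library 1 and 0.33 without full-length library 2. Ltbp2 was at 0.27 without full-length library 2 and was not called by DESeq2 (adjusted p = 0.063).

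The clearest group that rose was glycolysis and hypoxia genes, whose shared regulator in low oxygen is HIF1. Of 22 tested, 13 rose and 1 fell, 59.1% higher beside 1.51% of all genes, and the median log2 fold change was 0.58. Pfkl, the liver-type phosphofructokinase that commits sugar to glycolysis, had 804 and 678 CPM in IDR-deleted libraries, against 467 and 409 CPM in full-length libraries (log2 0.77, SE 0.083, adjusted p = 2.0e-07). Gapdh had 3994 and 3462 CPM in IDR-deleted libraries, against 2743 and 2294 CPM in full-length libraries (log2 0.58, SE 0.086), and Aldoa had 4023 and 3396 CPM in IDR-deleted libraries, against 2711 and 2378 CPM in full-length libraries (log2 0.56, SE 0.083). Every IDR-deleted library stood above every full-length library for these enzymes. Slc2a1, the basal glucose transporter, had 33.3 and 28.3 CPM in IDR-deleted libraries, against 19.98 and 18.5 CPM in full-length libraries (log2 0.69, SE 0.12). P4ha1, a prolyl hydroxylase that shapes collagen, had 144 and 125 CPM in IDR-deleted libraries, against 84.4 and 67.8 CPM in full-length libraries (log2 0.83, SE 0.096). Ankrd37, a target of HIF1, had 6.15 and 3.73 CPM in IDR-deleted libraries, against 1.57 and 1.72 CPM in full-length libraries (log2 1.60, SE 0.28). Pfkfb3, which makes the activator of phosphofructokinase, went the other way, with 249 and 309 CPM in IDR-deleted libraries, against 370 and 433 CPM in full-length libraries (log2 -0.51, SE 0.090, adjusted p = 1.0e-03). Ldha (log2 0.76, adjusted p = 0.073) and Egln3 (log2 1.21, adjusted p = 0.24) had differences of like size with more spread and were not called, and Hk2 and Vegfa were near 0 (log2 0.11 and 0.13).

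**Figure D3:**
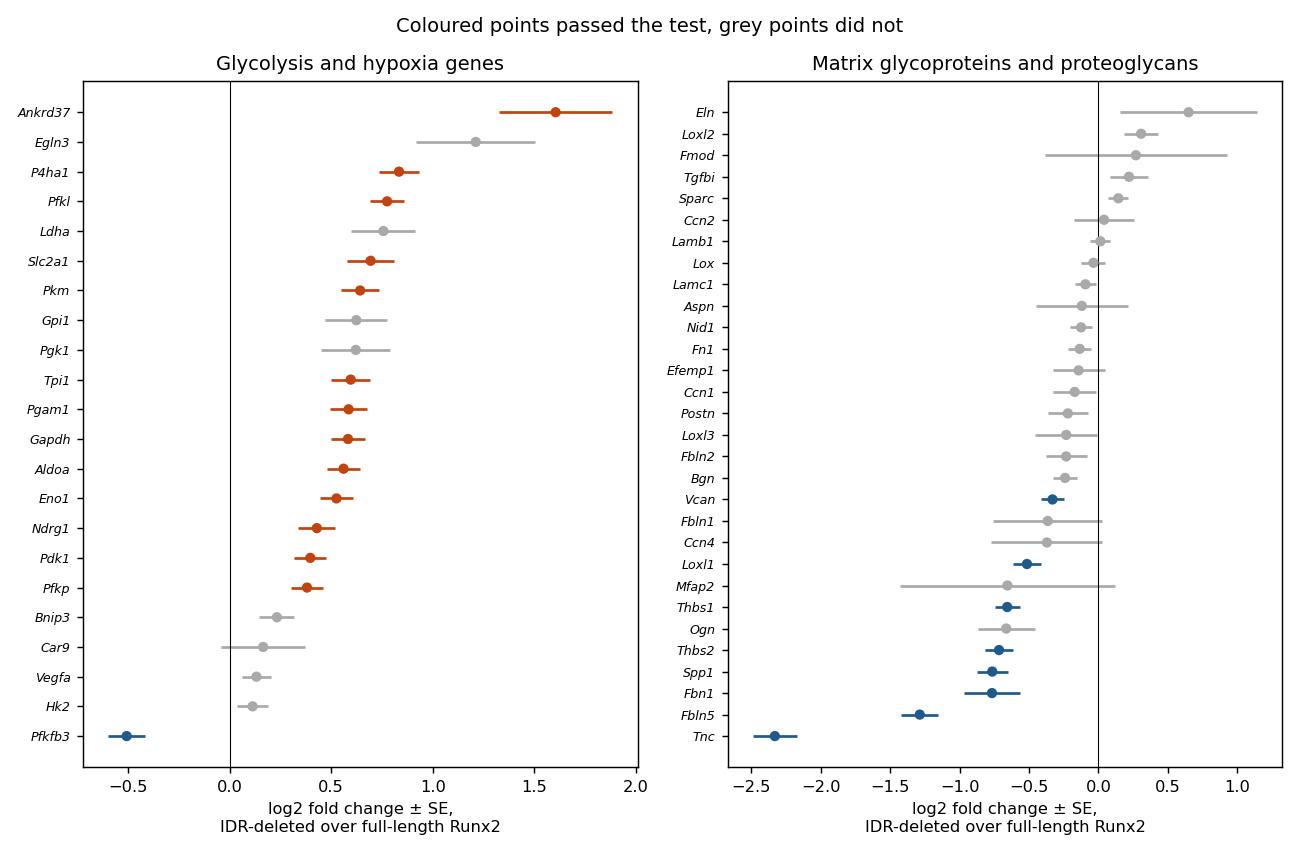
Points are the log2 fold change of IDR-deleted over full-length Runx2 with its SE as the line, for the 22 glycolysis and hypoxia genes and the 30 matrix glycoprotein and proteoglycan genes tested; red passed the test as higher, blue as lower, and grey did not pass. On the left 21 of 22 points lie above 0, with Pfkfb3 below it, and on the right 23 of 30 lie below 0.

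The 22 genes together made up 25118 and 21656 CPM in IDR-deleted libraries, against 17573 and 14643 CPM in full-length libraries. The sum thus varied inside each group as well, with library 1 above library 2 in both groups, and the lowest IDR-deleted library was still above the highest full-length one. Several of the genes with the largest rise outside that list are also known to respond to low oxygen. Ero1a, an oxidase that forms disulphide bonds in new proteins, had 521 and 440 CPM in IDR-deleted libraries, against 298 and 257 CPM in full-length libraries (log2 0.81, SE 0.085, adjusted p = 2.0e-07). Ak4, a mitochondrial adenylate kinase, had 37.3 and 28.4 CPM in IDR-deleted libraries, against 16.7 and 11.2 CPM in full-length libraries (log2 1.26, SE 0.18, adjusted p = 1.5e-03). P4ha2, another collagen prolyl hydroxylase, rose by 1.00 (SE 0.14). Apln, the apelin peptide hormone that adipocytes release, had 69.1 and 64.1 CPM in IDR-deleted libraries, against 37.5 and 35.0 CPM in full-length libraries (log2 0.90, SE 0.095, adjusted p = 1.8e-08). Hif1a, which encodes the oxygen-regulated subunit of the factor HIF1, had 135 and 135 CPM in IDR-deleted libraries, against 140 and 134 CPM in full-length libraries, and its log2 difference was -0.0020 (SE 0.078). These are levels of mRNA, and the amount or activity of the HIF1 protein was not tested.

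Genes of heat production did not move as a block. Ucp1 had 13.5 and 11.3 CPM in IDR-deleted libraries, against 7.36 and 3.67 CPM in full-length libraries, a log2 difference of 1.18 (SE 0.25, adjusted p = 0.020). The full-length libraries differed between themselves about as much as the groups did, and DESeq2 did not call the gene (adjusted p = 0.25). Cox7a1, the muscle and brown fat form of a cytochrome oxidase subunit, had 63.6 and 62.1 CPM in IDR-deleted libraries, against 43.4 and 43.8 CPM in full-length libraries (log2 0.54, SE 0.092, adjusted p = 1.3e-04). Mb, the oxygen carrier myoglobin, had 294 and 283 CPM in IDR-deleted libraries, against 189 and 160 CPM in full-length libraries (log2 0.74, SE 0.080, adjusted p = 2.9e-08). In contrast Cidea had 149 and 144 CPM in IDR-deleted libraries, against 136 and 130 CPM in full-length libraries (log2 0.15, adjusted p = 0.35), and the regulators Prdm16 (log2 -0.21, adjusted p = 0.71) and Ppargc1a (log2 -0.05, adjusted p = 0.89) were not called. Of 22 thermogenic and brown fat genes 4 rose (Ucp1, Cox7a1, Ckb and Otop1) and 2 fell (Adrb3 and Pdk4), with a median of -0.014. These were 18.2% higher and 9.09% lower, beside 1.51% and 2.40% of all genes. Ckb was not called by DESeq2 (adjusted p = 0.065) or without full-length library 1 (adjusted p = 0.25), full-length library 2 (adjusted p = 0.069) or IDR-deleted library 1 (adjusted p = 0.26). Otop1 was likewise not called by DESeq2 (adjusted p = 0.090) or without full-length library 2 (adjusted p = 0.45) or IDR-deleted library 1 (adjusted p = 0.11). Adrb3 was not called without full-length library 2 (adjusted p = 0.66), and Pdk4 was not called without IDR-deleted library 1 (adjusted p = 0.39).

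Few mitochondrial genes passed the test. Of 63 respiratory chain subunits 0 were called by edgeR or by DESeq2, yet 62 had a log2 fold change above 0, their median was 0.15, and 26 were higher and 0 lower at an unadjusted p under 0.05. Without a count filter or with the replicate block edgeR called 2 of them higher, and without IDR-deleted library 2 it called 19 higher. Fold changes above 0 were also found for 65 of 76 cytosolic ribosomal protein genes (median 0.060) and 62 of 78 mitochondrial ribosomal protein genes (median 0.074). Over all genes 906 were higher and 1066 lower at that unadjusted threshold. The 63 genes summed with 1 untested member to 23925 and 22078 CPM in IDR-deleted libraries, against 20835 and 21408 CPM in full-length libraries. Of 24 fatty acid oxidation genes 2 rose (8.33%, beside 1.51% of all genes), the trifunctional enzyme subunits Hadha and Hadhb. Of 20 citric acid cycle genes 1 rose (5%), Idh3a. All 3 differed by under 0.3 on the log2 scale, and none of them was called without full-length library 1, full-length library 2 or IDR-deleted library 1 (adjusted p between 0.11 and 0.44).

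Lipid storage and synthesis genes rose in part. Of 26 lipogenesis and sterol genes 7 rose and 0 fell, 26.9% higher beside 1.51% of all genes, with a median of 0.089. Unadjusted, 10 were higher and 2 lower, and DESeq2 called 7 higher and 0 lower. Fasn, fatty acid synthase, had 1376 and 1251 CPM in IDR-deleted libraries, against 951 and 949 CPM in full-length libraries (log2 0.48, SE 0.074, adjusted p = 2.7e-05). Scd2, a stearoyl-CoA desaturase, had 3503 and 3228 CPM in IDR-deleted libraries, against 2578 and 2182 CPM in full-length libraries (log2 0.52, SE 0.080). Other called members included Me1, Srebf1, Fdps and Lss, which rose by 0.29 to 0.38, and 3 of the list were called without full-length library 2 or without IDR-deleted library 1. Of 30 adipocyte identity genes 6 rose (20%, beside 1.51% of all genes) and 4 fell (13.3%, beside 2.40%). Rbp4, the retinol carrier that adipocytes secrete, had 194 and 161 CPM in IDR-deleted libraries, against 121 and 104 CPM in full-length libraries (log2 0.67, SE 0.091, adjusted p = 1.6e-05). Gpd1, which makes the glycerol backbone of fat, had 2960 and 2690 CPM in IDR-deleted libraries, against 2108 and 2203 CPM in full-length libraries (log2 0.41, SE 0.075), and G0s2, an inhibitor of fat breakdown, rose by 0.49 (SE 0.083). Plin1, which coats the lipid droplet, rose by 0.32 (SE 0.072, adjusted p = 4.6e-03), but was not called without full-length library 1 (adjusted p = 0.16). Adipoq, the hormone adiponectin, had 1372 and 1364 CPM in IDR-deleted libraries, against 1546 and 1800 CPM in full-length libraries (log2 -0.27, adjusted p = 0.028), and was not called without full-length library 2 (adjusted p = 0.68). The same held for the glyceroneogenic enzyme Pck1 (adjusted p = 0.21) and the early factor Cebpd (adjusted p = 0.10), which also fell; without IDR-deleted library 1 Pck1 was at an adjusted p of 0.052 and Cebpd at 0.39. The master regulators Pparg and Cebpa each had a log2 difference of 0.05 and were not called, nor was Fabp4 (log2 0.12, adjusted p = 0.51) or Lep (log2 0.54, adjusted p = 0.67).

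**Figure D4:**
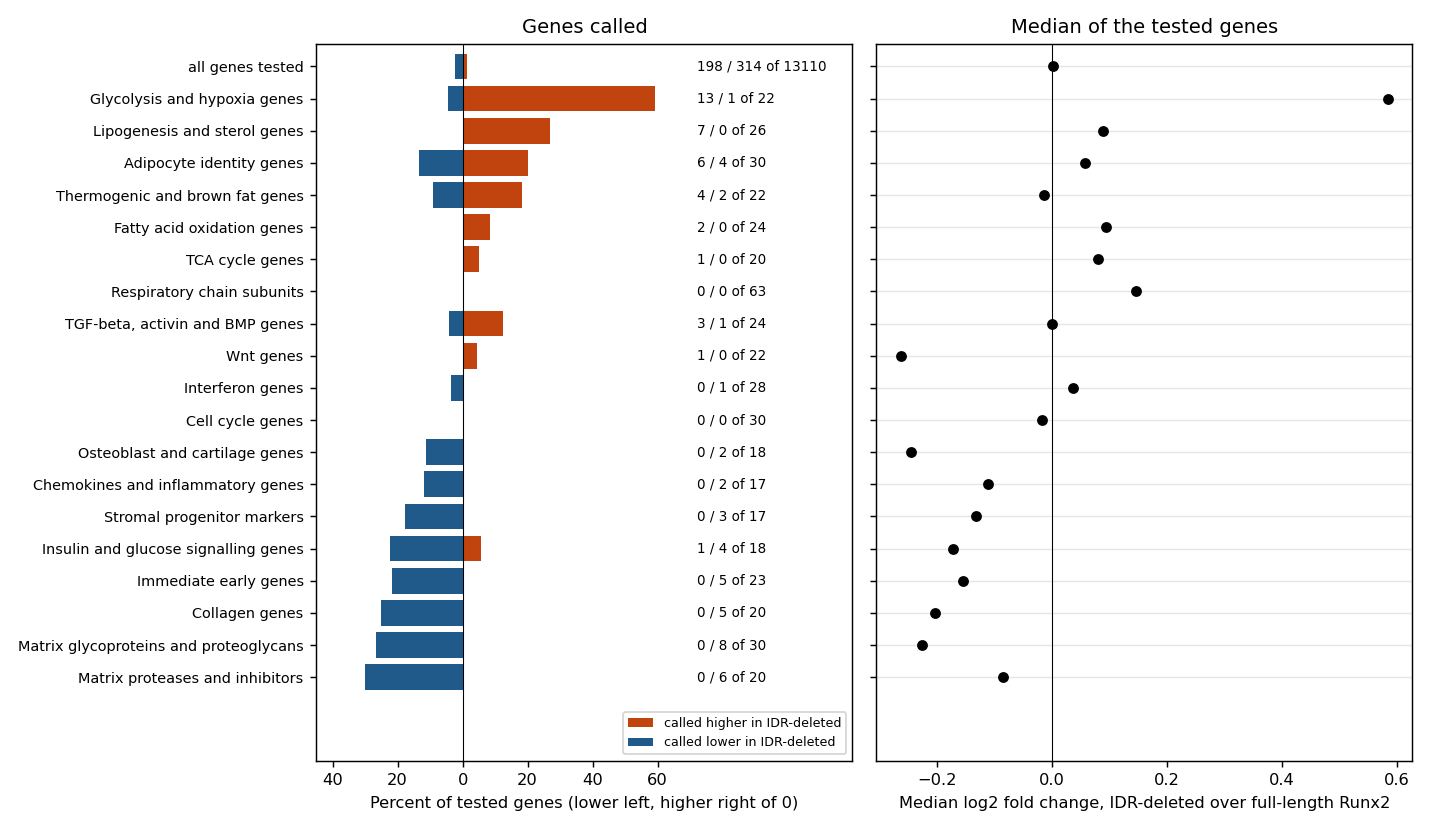
Left, the percent of each list's tested genes called higher (red, right of 0) or lower (blue, left of 0) in IDR-deleted cultures, with the counts higher and lower of those tested beside the bars; right, the median log2 fold change of the list. Glycolysis and hypoxia genes stand out on the right of both panels (13 of 22 higher, median 0.58), while the matrix, collagen, protease and immediate early lists hold calls only on the lower side.

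The other lists held between 0 and 5 calls each, while 1.51% of all genes were higher and 2.40% lower. Among 22 Wnt genes 1 was called, Wnt5a, which rose by 0.41, and DESeq2 did not call it (adjusted p = 0.063). The median of the list was -0.26, and unadjusted 8 were lower and 1 higher. Of 28 interferon genes 1 fell, Parp14. Of 17 chemokine and inflammatory genes 2 fell (Cxcl12 and Vcam1), of 17 stromal progenitor markers 3 fell (Nt5e, Pdgfra and F3, 17.6% lower), and of 18 insulin and glucose signalling genes 4 fell, among them Igf1r, Foxo3 and Igf2r, and 1 rose (Pik3r1), 22.2% lower beside 2.40% of all genes. The insulin and glucose count lower was 2 without full-length library 1, 1 without full-length library 2 or IDR-deleted library 1, and 7 without IDR-deleted library 2. Without full-length library 2, Wnt5a, Parp14, Nt5e, F3, Foxo3, Igf2r and Pik3r1 were not called (adjusted p between 0.054 and 0.75), and Pdgfra was not called without full-length library 1 (adjusted p = 0.25) or IDR-deleted library 1 (adjusted p = 0.080). DESeq2 did not call Parp14 (adjusted p = 0.088), F3 (adjusted p = 0.11) or Pik3r1 (adjusted p = 0.065). Of 25 unfolded protein and stress genes 1 rose (Hspa5), and of 13 heat shock chaperones 1 rose (Cryab). Of 15 myofibroblast and contractile genes 1 rose (Myh11, log2 0.89, SE 0.18), and of 18 lysosomal genes 1 fell (Ctsb). Hspa5, Cryab and Ctsb were not called without full-length library 2 (adjusted p between 0.13 and 0.47). Of 30 cell cycle genes 0 were called by edgeR or DESeq2, with 1 higher and 0 lower unadjusted. The same tools called 0 of 78 mitochondrial ribosomal protein genes (unadjusted, 7 higher and 0 lower), 0 of 76 cytosolic ribosomal protein genes (2 higher and 0 lower) and 0 of 28 HOX genes (2 higher and 0 lower). Marker lists of blood, nerve, vessel and muscle cells had at most 4 tested genes each and 0 calls by either tool, with 0 genes under an unadjusted p of 0.05; the lymphocyte list had no gene that passed the count filter. The epithelial list had 1 tested gene, Krt19, which was higher at 2.50 and 1.62 CPM in IDR-deleted libraries, against 0.650 and 0.829 CPM in full-length libraries (adjusted p = 0.029), and was not called by DESeq2 (adjusted p = 0.070) or without full-length library 1 (adjusted p = 0.18), full-length library 2 (adjusted p = 0.093) or IDR-deleted library 1 (adjusted p = 0.56).

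Runx2 overexpression against empty vector gave a list of genes that differed with added Runx2 in libraries that the IDR comparison does not use. The 8 brown adipocyte markers summed to 129, 146 and 151 CPM with Runx2 overexpression, against 615, 649 and 581 CPM with empty vector. The 4 myofibroblast markers summed to 1436, 1335 and 1140 CPM, against 36.4, 30.6 and 60.3 CPM. Within these sets Zic1 and Myh11 went the other way. An answer to Runx2 and a change in differentiation cannot be told apart in this list. With Runx2 overexpression 2513 of 14661 genes rose at 2-fold or more (17.1%) and 1664 fell (11.3%). Of the genes that rose, 1756 were tested in the IDR comparison, and there 128 were lower (7.29%) and 13 higher (0.740%). Of the genes that fell with Runx2 overexpression, 1570 were tested, and 106 were higher (6.75%) and 36 lower (2.29%). Over the 13025 genes that both tables tested, 312 were lower (2.40%) and 198 higher (1.52%). The median log2 fold change was -0.070 for the genes that rose with added Runx2, 0.074 for those that fell and 0.0017 for all. The shares grew with the fold. Among genes that rose at 16-fold or more, 26 of 183 were lower (14.2%) and 0 higher with IDR-deleted Runx2. Among those that fell as far, 17 of 88 were higher (19.3%) and 3 lower (3.41%). Read the other way, 170 of the 312 genes lower in IDR-deleted cultures had risen with added Runx2 at any fold (54.5%) and 77 had fallen (24.7%), against 29.4% and 32.6% of all genes. Of the 198 higher genes, 22 had risen (11.1%) and 144 had fallen (72.7%). Across the 13025 genes the 2 sets of fold changes had a Pearson correlation of -0.19 and a Spearman correlation of -0.16, which is a description across genes, since genes are not independent replicates. Vector libraries 1 and 2 carried cardiac muscle transcripts, at a summed 88.6 and 359 CPM of the 6 cardiac markers beside 0.327 CPM in vector library 3. With vector library 3 alone, assumed to vary like the other groups, 121 of 1488 genes that rose were lower and 11 higher, and 105 of 1326 that fell were higher and 29 lower.

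**Figure D5:**
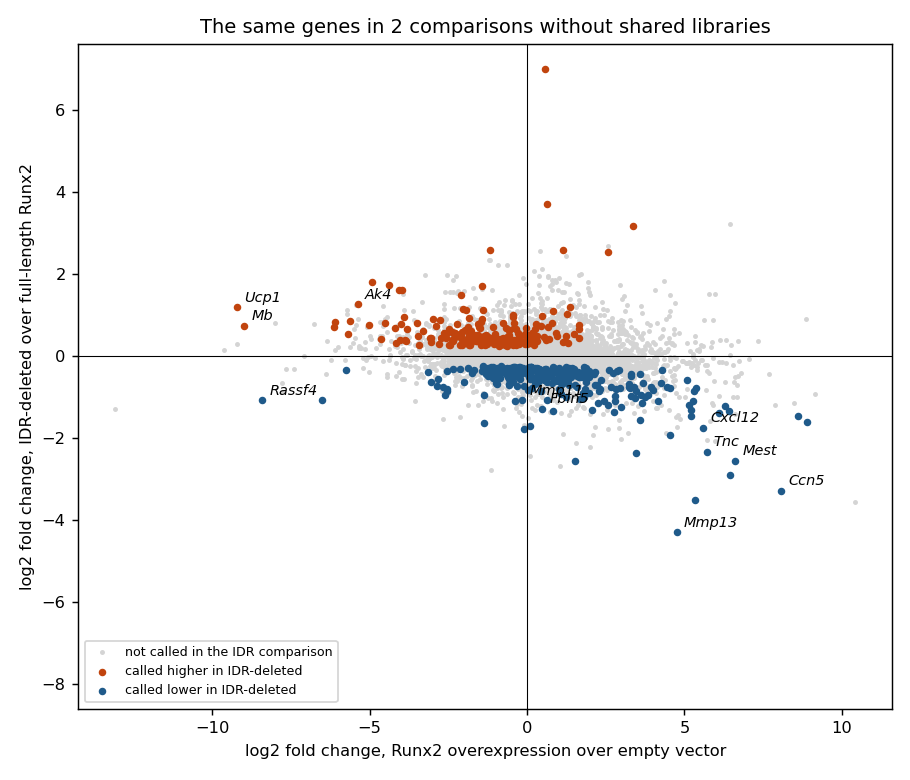
Each point is 1 of 13025 genes tested in both count tables, with its log2 fold change of Runx2 overexpression over empty vector on the horizontal axis and of IDR-deleted over full-length Runx2 on the vertical axis; red genes were called higher and blue genes lower in the IDR comparison, which shares no library with the other. Blue points lie mostly to the right of 0 (170 of 312 had risen with added Runx2) and red points mostly to the left (144 of 198 had fallen).

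Several genes called in both comparisons moved in opposite directions. Ccn5 averaged 104 CPM with Runx2 overexpression and 0.329 CPM with empty vector (log2 8.08). Mest averaged 215 CPM with Runx2 overexpression and 1.91 CPM with empty vector (log2 6.61), and Tnc averaged 678 CPM with Runx2 overexpression and 11.2 CPM with empty vector (log2 5.70). The step was thus many times larger than that between full-length and IDR-deleted Runx2. Cxcl12 averaged 1485 CPM with Runx2 overexpression and 26.6 CPM with empty vector (log2 5.60). At the other end, Ucp1 averaged 0.0848 CPM with Runx2 overexpression and 45.2 CPM with empty vector, and Ero1a averaged 131 CPM with Runx2 overexpression and 2619 CPM with empty vector. Not all genes did so. Rassf4 fell with IDR-deleted Runx2 (log2 -1.09) and also fell with Runx2 overexpression (0.0968 CPM, against 30.8 CPM with empty vector), and Id3 rose in both (330 CPM with Runx2 overexpression, against 92.0 CPM with empty vector). Mmp11 fell with IDR-deleted Runx2 and was not called with Runx2 overexpression (log2 -0.16, adjusted p = 0.34).

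Levels in full-length cultures nevertheless differed from those with Runx2 overexpression for many genes called in both comparisons. Runx2 itself stood at 294 and 297 CPM in full-length libraries and at 295, 360 and 336 CPM with Runx2 overexpression. Of the 128 genes that rose with added Runx2 and were lower with IDR-deleted Runx2, 118 had a lower mean in full-length cultures than with Runx2 overexpression. In 75 of the 128 the IDR-deleted mean was above that of empty vector, and in 65 both held, so the order was vector, IDR-deleted, full-length, overexpression. The choice of these genes largely set vector below overexpression and IDR-deleted below full-length. It also favoured a full-length mean below overexpression, and no share over all genes was taken, so the order is only a description. Of the 106 genes that fell with added Runx2 and were higher with IDR-deleted Runx2, the mirrored order held in 71, with the same limit. Cidea shows the distance: it averaged 133 CPM in full-length cultures, 0.163 CPM with Runx2 overexpression and 129 CPM with empty vector. Cxcl12 shows another case, with 12.8 and 10.9 CPM in IDR-deleted libraries, below the 26.6 CPM mean of empty vector. These levels come from separate count tables, so the table and the condition cannot be told apart in them.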

How the data were processed

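Polyadenylated RNA was sequenced from 4 libraries of differentiated BAT cells. Reads were trimmed with fastp, aligned to mm39 with STAR and counted with featureCounts, per the submitters' processing notes, which give no versions or options. The deposited values are raw counts per gene symbol for 26264 genes, per the file headers. Even numbers made up 71.1 to 73.2% of values between 1 and 19, a sign that the mates of a read pair were often counted as separate reads. The totals may then exceed the number of fragments, and the floors of 3 counts in the closing section and the intervals cover counting error only. The deposited list of changed genes gives log2 fold changes and adjusted p-values made by the authors, per the file headers; 4 per-sample columns in it were not used.

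Counts were filtered with filterByExpr, scaled with TMM and fitted with the robust quasi-likelihood test of edgeR 4.0.16 in R 4.3.3, on this table alone, with Benjamini-Hochberg adjustment over all 13110 tested genes; the fit had 2 residual degrees of freedom, and the script was tested on simulated data. CPM are per library total, without TMM. The overexpression table (9 libraries) was fitted apart with its 3 groups. Chi-square per degree of freedom was 12.1 between the IDR-deleted and 9.93 between the full-length libraries, so neither pair is a single library deposited again. DESeq2 1.42.0, other filters and scalings, a replicate block and leaving out libraries were the alternatives. RUNX genes, a fixed set of adipocyte, matrix and bone genes, the 12 highest and 12 lowest called genes with a mean of at least 5 CPM, the 5 of lowest adjusted p per direction and up to 4 called members per list and direction were named; others (Fn1, Hif1a, Hk2, Vegfa, Ldha, Egln3 and those in the closing section) were chosen after their values were seen. The 36 gene lists and the named genes were chosen with earlier results of these data known. Promoters were matched by symbol, and Ccn5 and Angpt1 had no entry. Near-identical genes, such as the Ifi20x family, may share reads.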

Additional observations from a re-analysis of the deposited data

How the results depend on the processing

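The limits are 2 libraries a group and small differences. Of 85 named genes called, 46 were called without any single library and 44 in every setting. Leaving out 1 library at a time gave 242 to 1214 calls, 80 to 470 higher and 162 to 744 lower, of which 7 to 37 higher and 27 to 82 lower at 2-fold or more. The same settings gave 3 to 8 lipogenesis genes higher, 14 to 18 glycolysis and hypoxia genes higher, and, called lower, 5 to 8 matrix glycoproteins, 3 to 5 matrix proteases and 2 to 5 immediate early genes. Of genes that rose with Runx2 overexpression they gave 2 to 24 higher and 68 to 174 lower, and of genes that fell 56 to 198 higher and 15 to 87 lower. DESeq2's Wald test called 362 genes, 358 of them also called by edgeR, with 7 higher at 2-fold or more, 3 matrix proteases lower and 2 genes higher among those that rose with Runx2 overexpression; without a count filter the last count was 20 and 671 genes were called. At 4-fold or more under Runx2 overexpression, 2 genes that rose were higher and 67 lower, and 57 that fell were higher and 15 lower, because fewer genes pass. The replicate numbers do not show pairing: the deviations of same-numbered libraries correlated at 0.035. With the replicate block 707 genes were called, with 22 higher among genes that rose with Runx2 overexpression and 56 lower among those that fell. Ppargc1a, never called, was at 0.078 without full-length library 1, 0.014 without IDR-deleted library 1 and -0.16 without full-length library 2, and Postn, never called, was at 0.040 without full-length library 2 and -0.44 without full-length library 1; the cause was not tested. No other named gene changed direction. Of the 85 named calls, 34 were lost without full-length library 2, 29 without IDR-deleted library 1 and 13 under DESeq2's test. Other counts over all genes, over the overexpression groups and of the lists above in the direction given stayed within 1.5 times; counts of the other lists moved further in places. DESeq2 called 1 osteoblast gene, 3 collagens and 0 interferon genes lower, and 1 thermogenic, 0 Wnt and 0 heat shock genes higher; without a count filter 2 respiratory chain subunits and 1 matrix protease were higher.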

Other observations

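Genes outside the lists included several signalling genes that fell; they were chosen after their values were seen. Kitl, the ligand of the receptor KIT, had 175 and 223 CPM in IDR-deleted libraries, against 417 and 389 CPM in full-length libraries (log2 -1.001, SE 0.087, edgeR adjusted p = 1.1e-08). Il6ra, the interleukin 6 receptor, had 21.6 and 27.4 CPM in IDR-deleted libraries, against 43.7 and 45.4 CPM in full-length libraries (log2 -0.85, SE 0.11), and Osmr, the oncostatin M receptor, had 14.8 and 22.6 CPM in IDR-deleted libraries, against 33.4 and 33.3 CPM in full-length libraries (log2 -0.82, SE 0.14). Foxc1, a forkhead factor of mesenchyme, had 39.0 and 42.4 CPM in IDR-deleted libraries, against 70.1 and 74.7 CPM in full-length libraries (log2 -0.82, SE 0.092). Irf4, which in mouse brown fat works with PGC-1alpha in the answer to cold, had 14.2 and 15.7 CPM in IDR-deleted libraries, against 28.8 and 30.1 CPM in full-length libraries (log2 -0.96, SE 0.12), while it was lower with Runx2 overexpression as well, at 6.28 CPM against 14.1 CPM with empty vector. Cyp1b1, a cytochrome P450 of steroid and retinoid metabolism, had 87.6 and 104 CPM in IDR-deleted libraries, against 178 and 184 CPM in full-length libraries (log2 -0.90, SE 0.082). All of these were called in each of the other settings.

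Among genes that rose, Plin5, a lipid droplet protein of oxidative tissue, had 78.9 and 60.8 CPM in IDR-deleted libraries, against 48.9 and 43.7 CPM in full-length libraries (log2 0.61, SE 0.11), and Plod2, a lysyl hydroxylase that modifies collagen, had 47.4 and 36.0 CPM in IDR-deleted libraries, against 24.6 and 27.8 CPM in full-length libraries (log2 0.69, SE 0.12). Alb, serum albumin, had 0 counts over both IDR-deleted libraries and 68 counts in full-length libraries. That is 22.2-fold lower with a floor of 3 counts over the group in place of the 0. Gpr160, an orphan receptor, had 31 counts in IDR-deleted libraries and 0 in full-length libraries, 10.6-fold higher with the same floor. These folds leave out the spread between libraries and the counting of mates as separate reads.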
